A study of Mus musculus with 10 samples.

Results

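The genes described here are 9 mouse genes of the circadian clock: the output factors Dbp, Tef, Hlf, Nfil3, Bhlhe40, Bhlhe41 and Gm129, and the clock protein kinases Csnk1d and Csnk1e. They were chosen by name from the listed genes of an RNA-seq series, 9 of 22552 genes, by a rule that uses no measured value. All 9 had a mean of at least 1 FPKM (fragments per kilobase of transcript, scaled by the number of mapped fragments) and were among the 10901 genes tested. Polyadenylated RNA of mouse embryonic fibroblasts was sequenced in 4 groups of 2 libraries, with single-end reads of 76 nt. The groups were mock-transfected cells at 32 °C, cells transfected with siCirbp at 37 °C, cells transfected with siRbm3 at 37 °C, and mock-transfected cells at 37 °C as the control. The series also has 1 PAR-CLIP library for each protein (RNA crosslinked to it and recovered with a FLAG antibody), from fibroblasts at 37 °C that stably carried the tagged protein and were given 100 µM 4-thiouridine for 16 h. There was no control siRNA among the groups, so what the loss of a target does and what any siRNA does cannot be told apart. Nothing in the labels tells whether replicate libraries came from separate cultures, and p-values therefore measure a spread that may be technical. The groups hold no series of harvest times, so for clock genes a change of level and a shift of clock phase cannot be told apart.

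In the circadian clock, the activators Clock and Arntl bind E-box elements and drive the Per and Cry genes, whose proteins then repress the activators. Dbp, Tef and Hlf are the PAR bZIP factors, which activate genes with D-box elements, and Nfil3 (E4bp4) represses through the same elements. Bhlhe40 (Dec1) and Bhlhe41 (Dec2) bind E-boxes and repress the Clock and Arntl activators, and Gm129, now named Ciart or Chrono, is a repressor of the same activators. Casein kinases 1 delta and epsilon, the products of Csnk1d and Csnk1e, phosphorylate Per proteins and so set their stability and the pace of the clock. Mild cold is known to induce both Cirbp and Rbm3, which bind RNA, and the series addresses their sites on RNA and their influence on the transcriptome.

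Promoters were searched because clock output factors are read through E-boxes and related elements, and those of Gm129, Tef, Bhlhe41 and Hlf are shown. RefSeq sequences on GRCm38.p6 were at hand for 7 of the 9 genes, all but Bhlhe40 and Csnk1d. The 250 bases before each start were searched on both strands. The motifs were the E-box CACGTG, the core ACGTG of hypoxia response elements, which every CACGTG contains, the D-boxes TTATGTAA and TTACGTAA, and the cAMP response element TGACGTCA. Capitals mark matches.
Gm129 (Ciart), chr3:95882229-95882478, minus strand: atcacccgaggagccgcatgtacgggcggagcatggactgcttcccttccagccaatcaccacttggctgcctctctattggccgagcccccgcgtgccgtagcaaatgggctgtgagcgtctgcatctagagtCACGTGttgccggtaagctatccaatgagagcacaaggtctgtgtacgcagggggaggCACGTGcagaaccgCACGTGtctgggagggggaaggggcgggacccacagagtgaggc
Tef, distal start, chr15:81802423-81802672, plus strand: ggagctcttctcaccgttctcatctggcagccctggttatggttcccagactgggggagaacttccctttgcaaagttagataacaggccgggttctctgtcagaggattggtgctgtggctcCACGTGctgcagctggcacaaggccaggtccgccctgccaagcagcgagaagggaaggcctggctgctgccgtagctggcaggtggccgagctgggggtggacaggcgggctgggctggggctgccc
Tef, proximal start, chr15:81811164-81811413, plus strand: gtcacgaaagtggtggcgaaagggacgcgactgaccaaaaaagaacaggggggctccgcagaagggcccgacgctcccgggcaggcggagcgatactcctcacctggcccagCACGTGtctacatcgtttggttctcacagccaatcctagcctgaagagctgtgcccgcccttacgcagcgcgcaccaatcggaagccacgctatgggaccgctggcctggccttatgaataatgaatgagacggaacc
Bhlhe41, chr6:145865421-145865670, minus strand: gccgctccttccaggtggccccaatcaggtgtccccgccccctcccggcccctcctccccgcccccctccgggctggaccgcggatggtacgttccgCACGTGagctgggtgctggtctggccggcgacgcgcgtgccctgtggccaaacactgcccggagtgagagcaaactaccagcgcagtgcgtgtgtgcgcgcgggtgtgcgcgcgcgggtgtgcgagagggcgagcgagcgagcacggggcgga
Hlf, chr11:90390918-90391167, minus strand: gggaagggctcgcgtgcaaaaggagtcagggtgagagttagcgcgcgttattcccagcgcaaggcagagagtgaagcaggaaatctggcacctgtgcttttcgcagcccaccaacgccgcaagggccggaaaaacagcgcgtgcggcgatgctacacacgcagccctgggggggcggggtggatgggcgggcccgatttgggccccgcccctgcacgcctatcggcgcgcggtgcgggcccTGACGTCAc

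Gm129 had 3 E-boxes in this window, at 116, 58 and 44 bases before the start, counted to the first base of each. Each Tef promoter had 1 E-box, at 127 and 138 bases, and the spacing of the pair of Tef starts, 8741 bases, is the same in the RefSeq table as in the deposited loci. Bhlhe41 had 1 E-box, at 153 bases. An E-box was found in 6.02% of all 32851 promoter windows. Hlf had no E-box but a cAMP response element at 9 bases before the start, a motif found in 1.55% of windows. Dbp had 1 ACGTG, at 227 bases, a motif found in 16.6% of windows, and no E-box in this stretch. Nfil3 and Csnk1e had none of these motifs, and no D-box was found in any of the 7 genes (0.931% of all windows). A match is a description of the sequence, and these windows say nothing of elements elsewhere in the genes.

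Depth ran from 24.8 to 27.8 M mapped fragments per library. At 32 °C Cirbp rose to 34.5 and 37.2 FPKM, against 15.9 and 17.1 FPKM in mock 37 °C (limma adjusted p = 0.0313), and Rbm3 stood at 3.64 and 3.20 FPKM, against 1.85 and 2.21 FPKM in mock 37 °C (0.191). The siCirbp libraries had 10.8 and 6.07 FPKM of Cirbp, below both controls without passing (limma adjusted p = 0.116), and 5.54 and 7.55 FPKM of Rbm3, above both (log2 fold change 1.31, limma adjusted p = 0.0588), so Cirbp was not the only one of the pair to stand apart. The libraries labelled siRbm3 had 3.05 and 1.16 FPKM of Rbm3, a log2 fold change of -0.03 against mock 37 °C (limma adjusted p = 0.971). As a group they thus showed no lower Rbm3 level. Replicate 1 thus lay above both controls in Rbm3, against its label, and directions drawn from siRbm3 rest on libraries with that label.

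Of 8 fibroblast markers 7 had a mean of at least 1 FPKM and Thy1 was listed at 0 in all 8 libraries. Their summed level was 9901 and 12582 FPKM in mock 32 °C, 6648 and 5700 after siCirbp and 9365 and 11399 after siRbm3, against 8963 and 9058 in mock 37 °C. At 32 °C the markers stood on both sides: S100a4, the largest part of the sum, had 7339 and 10168 FPKM, against 4421 and 4315 in mock 37 °C, while Col1a1 had 194 and 177 FPKM, against 675 and 775, and Fn1 247 and 241 FPKM, against 736 and 741. Summed macrophage markers had 30.4 and 35.9 FPKM in mock 32 °C, 15.0 and 14.2 after siCirbp and 13.1 and 25.0 after siRbm3, against 17.6 and 20.6 in mock 37 °C, with 2 of 5 at a mean of at least 1 FPKM, Emr1 listed at 0 and Ptprc at or near 0. Neural markers, with 2 of 3 listed (Sox2 and Nes) at that level, summed to 17.2 and 18.2 FPKM in mock 32 °C, 56.6 and 76.9 after siCirbp and 63.8 and 67.9 after siRbm3, against 50.1 and 53.3 in mock 37 °C. Muscle markers, with 2 of 4 at that level and Myod1 and Myog at or near 0, summed to 37.8 and 40.1 FPKM in mock 32 °C, 66.7 and 66.8 after siCirbp and 52.2 and 67.4 after siRbm3, against 47.7 and 52.4 in mock 37 °C. Most of that sum was Tnnt2, with 36.6 and 39.0 FPKM in mock 32 °C, against 47.0 and 51.7 in mock 37 °C. Des stood the other way, with 1.21 and 1.09 FPKM in mock 32 °C, against 0.677 and 0.754 in mock 37 °C. Endothelial markers, with 1 of 4 at that level (Flt1) and Cdh5 and Kdr at or near 0, summed to 10.8 and 11.1 FPKM in mock 32 °C, 17.4 and 9.70 after siCirbp and 16.5 and 11.9 after siRbm3, against 15.4 and 15.4 in mock 37 °C. Epithelial markers, with 1 of 4 at that level (Krt19) and Epcam, Cdh1 and Krt18 at or near 0, summed to 0.180 and 0.0947 FPKM in mock 32 °C, 1.38 and 1.32 after siCirbp and 2.47 and 7.63 after siRbm3, against 1.39 and 1.70 in mock 37 °C. Adipocyte markers, with 2 of 4 at that level and Adipoq at or near 0, summed to 29.7 and 29.9 FPKM in mock 32 °C, 33.6 and 11.4 after siCirbp and 14.7 and 19.8 after siRbm3, against 19.0 and 19.9 in mock 37 °C. Of these 2 genes, Fabp4 had 26.7 FPKM in both mock 32 °C libraries, against 10.2 and 9.98 in mock 37 °C, while Lipe had 2.81 and 2.97 FPKM, against 8.40 and 9.62. The part of any of these markers in the results was not tested. In bulk RNA, fewer cells of a type and less RNA per cell cannot be told apart.

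All 9 genes were expressed in mock 37 °C cells, over a wide range. FPKM is per length and lets genes be ranked: Bhlhe40 stood highest with 119 FPKM, followed by Csnk1d with 69.0, Csnk1e with 31.2 and Nfil3 with 27.9. Tef with 19.8 ± 0.42 FPKM and Bhlhe41 with 19.7 ± 0.046 did not differ beyond their spread, and neither did Hlf with 10.8 ± 0.44 and Dbp with 10.3 ± 0.91 (SD, n = 2 libraries). Gm129 was lowest with 3.54 ± 0.18 FPKM, resting on 94 to 233 reads per library. Reads behind the other genes ranged from 181 for Dbp in siCirbp replicate 2 to 14905 for Bhlhe40 in siRbm3 replicate 2. At 32 °C the order changed, with Csnk1d at 47.9 FPKM above Bhlhe40 at 36.8. Tef, with 29.3 FPKM, stood above Csnk1e with 22.0, Dbp with 12.8, Nfil3 with 9.01 and Bhlhe41 with 6.45.

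At 32 °C the repressors Nfil3, Bhlhe40 and Bhlhe41 and the PAR bZIP factor Hlf fell, while Tef and Dbp stood higher without passing the test. Of the 9 genes, 4 fell and 0 rose by limma (adjusted p under 0.05), where 32.8% of all tested genes were called, 19.8% lower and 13.0% higher. An unadjusted p under 0.05 was found for 6 of the 9 genes and for 45.6% of all tested genes. The median log2 fold change of the 9 genes was -0.52, beside -0.02 over all tested genes. The split of all called genes depended on scaling, with 1420 higher and 2153 lower as given, 2110 and 1721 with median centring, which moved the median of all genes to 0.11, and 1893 and 1994 with quantile normalization. In 9 of 9 genes the 2 libraries at 32 °C did not overlap those at 37 °C, 7 lower and 2 higher. Of all tested genes 84.9% did not overlap, so this count is close to the background.

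**Figure D1:**
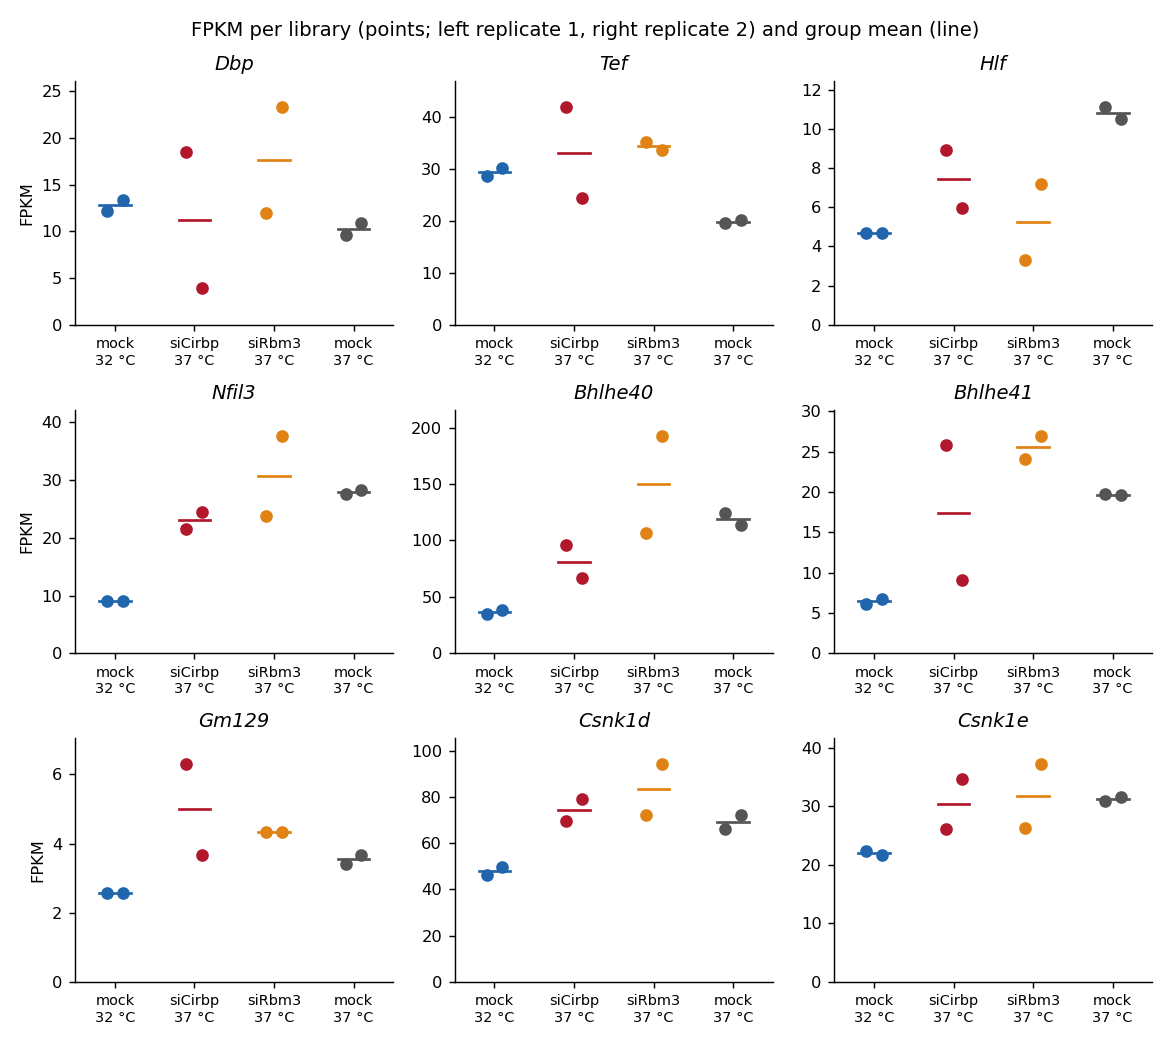
FPKM of each of the 9 genes (y axis, from 0) in the 8 libraries, by group (x axis); points are libraries, lines group means. Nfil3, Bhlhe40, Bhlhe41 and Hlf lie lower in both mock 32 °C libraries than in both mock 37 °C libraries, and Dbp in siCirbp is split between 18.5 and 3.89 FPKM.

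Nfil3, the repressor at D-boxes, had 9.02 and 9.01 FPKM in mock 32 °C, against 27.6 and 28.2 FPKM in mock 37 °C. The level at 32 °C was 0.323 of that at 37 °C, and the libraries within each group nearly coincided. The log2 fold change was -1.53 (SE 0.21, n = 2 per group, limma adjusted p = 0.00386). Of the 4 genes, Nfil3 alone stayed called when any 1 of the 4 mock libraries was left out, in fits that called far fewer of all tested genes. Its log2 fold change there stayed between -1.54 and -1.52.

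Bhlhe40, a repressor of Clock and Arntl activity that is also known as a hypoxia-induced gene, had 35.2 and 38.4 FPKM in mock 32 °C, against 124 and 114 FPKM in mock 37 °C. Its paralog Bhlhe41 had 6.11 and 6.79 FPKM in mock 32 °C, against 19.7 and 19.6 FPKM in mock 37 °C. Both paralogs thus fell to a similar share, 0.309 and 0.328 of the mock 37 °C level. The log2 fold change was -1.67 for Bhlhe40 (SE 0.29, n = 2 per group, limma adjusted p = 0.00721). For Bhlhe41 it was -1.47 (SE 0.39, limma adjusted p = 0.0267). Without 1 mock library at a time neither was called, in fits that called far fewer of all tested genes. The log2 fold change of each stayed between -1.73 and -1.41 in these fits.

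Hlf, which activates through D-boxes, had 4.66 and 4.68 FPKM in mock 32 °C, against 11.1 and 10.5 FPKM in mock 37 °C. Its log2 fold change was -1.06 (SE 0.30, n = 2 per group, limma adjusted p = 0.0346). This call did not hold under several other settings. Without 1 mock library at a time Hlf was not called, in fits that called far fewer of all tested genes. Its log2 fold change ran from -1.09 to -1.02 there. The limma adjusted p was 0.0535 with median centring, 0.0648 with quantile normalization and 0.0594 with a replicate block. With the length trend removed it was 0.141, where the log2 fold change was -0.74.

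The other PAR bZIP factors stood the opposite way, without passing the test. Tef had 28.5 and 30.1 FPKM in mock 32 °C, against 19.5 and 20.1 FPKM in mock 37 °C (log2 fold change 0.54, SE 0.23, n = 2 per group, limma adjusted p = 0.112). It passed only without 1 siCirbp library and in a fit of the 2 mock groups alone, among the alternatives run. Dbp had 12.2 and 13.4 FPKM in mock 32 °C, against 9.61 and 10.9 FPKM in mock 37 °C. Its log2 fold change of 0.30 had an SE of 0.60 in a fit that shares 1 spread over all 4 groups, the siRNA libraries included (limma adjusted p = 0.730).

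The kinase genes stood lower at 32 °C by similar amounts, short of the threshold. Csnk1d had 46.1 and 49.7 FPKM in mock 32 °C, against 66.0 and 72.1 FPKM in mock 37 °C (log2 fold change -0.52, SE 0.17, n = 2 per group, limma adjusted p = 0.0526). Csnk1e had 22.4 and 21.7 FPKM in mock 32 °C, against 30.9 and 31.6 FPKM in mock 37 °C (log2 fold change -0.49, SE 0.20, limma adjusted p = 0.105). Among 9 alternatives other than leaving out 1 library, Csnk1d passed in 4 and Csnk1e in 1, a fit of the mock groups alone, which called both. Csnk1d also passed with a mean of at least 5 FPKM (limma adjusted p = 0.0482), with quantile normalization (0.0130) and with a replicate block (0.0412). In these fits 36.9%, 35.7% and 29.2% of all tested genes were called. Csnk1d did not pass with a pseudocount of 0.1 (limma adjusted p = 0.0521), median centring (0.0969), the length trend removed (0.102), the highest transcript only (0.217) or no filter (0.397). Without replicate 1 or 2 of siRbm3 the log2 fold changes stayed at -0.52 for Csnk1d and -0.49 for Csnk1e. The repressor gene Gm129 had 2.58 and 2.57 FPKM in mock 32 °C, against 3.41 and 3.67 FPKM in mock 37 °C, which did not pass either (log2 fold change -0.34, SE 0.22, limma adjusted p = 0.257).

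Of the genes printed above with an E-box before the start, Bhlhe41 fell at 32 °C, Tef stood at 0.54 and Gm129 at -0.34 on the log2 scale.

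The 2 mock groups were the tightest of the study, with a median absolute log2 difference between libraries of 0.107 in mock 32 °C, 0.261 in siCirbp and 0.313 in siRbm3, against 0.0879 in mock 37 °C. A fit of the mock groups alone called all 9 genes, 7 lower and 2 higher, and 7557 of all tested genes.

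**Figure D2:**
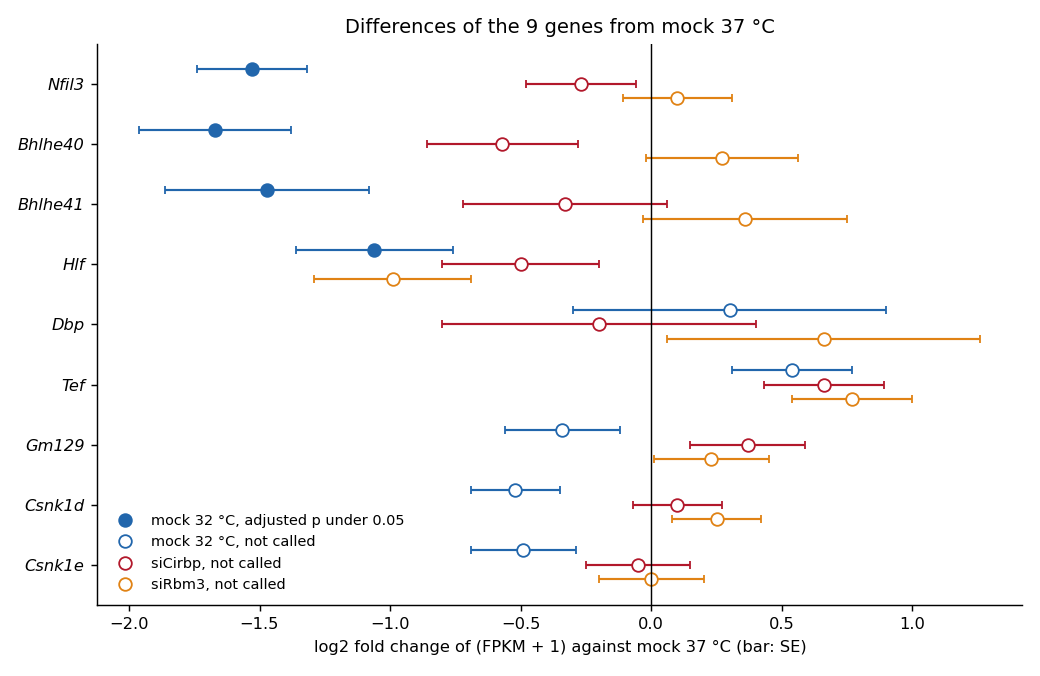
Log2 fold change of (FPKM + 1) against mock 37 °C (x axis) for the 9 genes (y axis), with SE bars, for mock 32 °C, siCirbp and siRbm3. Filled points passed limma's adjusted p of 0.05: Nfil3, Bhlhe40, Bhlhe41 and Hlf at 32 °C, and no gene after either siRNA.

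After siRNA against Cirbp 0 of the 9 genes passed limma, where 3.39% of all tested genes did, and 1 of 9, Tef, had an unadjusted p under 0.05, where 24.2% of all did. In 5 of 9 genes the siCirbp libraries did not overlap those of mock 37 °C (Tef and Gm129 higher, Hlf, Nfil3 and Bhlhe40 lower), beside 60.4% of all tested genes. The median log2 fold change of the 9 genes was -0.20, beside 0.08 over all tested genes, of which 302 were called higher and 68 lower (280 and 124 with quantile normalization, 53 and 48 with the length trend removed). Tef had 41.8 and 24.3 FPKM in siCirbp, against 19.5 and 20.1 FPKM in mock 37 °C (log2 fold change 0.66, SE 0.23, n = 2 per group, limma adjusted p = 0.143). Bhlhe40 had 95.8 and 66.4 FPKM in siCirbp, against 124 and 114 FPKM in mock 37 °C (log2 fold change -0.57, SE 0.29, limma adjusted p = 0.277). Nfil3 had 21.6 and 24.4 FPKM and Hlf 8.90 and 5.97 FPKM in siCirbp, all below the mock 37 °C libraries but not past the test (limma adjusted p = 0.482 and 0.356). Csnk1d had 69.7 and 79.0 FPKM in siCirbp, which overlapped mock 37 °C, with a log2 fold change of 0.10 (SE 0.17, limma adjusted p = 0.759) that was -0.07 with quantile normalization. Csnk1e had 26.1 and 34.6 FPKM in siCirbp, which overlapped too, at -0.05 (SE 0.20, limma adjusted p = 0.905). Gm129 had 6.30 and 3.68 FPKM in siCirbp, just above the mock 37 °C libraries (log2 fold change 0.37, limma adjusted p = 0.350).

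Dbp and Bhlhe41 differed widely between the 2 siCirbp libraries. Dbp had 18.5 FPKM in replicate 1 and 3.89 FPKM in replicate 2, one above and one below both mock 37 °C libraries. The bounds in the authors' deposited tables, whose basis the sources used here do not give, were 17.0 to 19.9 FPKM and 3.24 to 4.55 FPKM and did not overlap. This difference of 1.99 on the log2 scale was exceeded by 0.743% of tested genes in the same pair. Bhlhe41 had 25.8 FPKM in replicate 1 and 9.03 FPKM in replicate 2, a log2 difference of 1.42 exceeded by 1.56% of genes. Tef, Gm129, Bhlhe40 and Hlf were higher in replicate 1 as well, by 0.76, 0.64, 0.52 and 0.51, while Nfil3, Csnk1d and Csnk1e were lower there, by -0.17, -0.18 and -0.39. Of the core loop, Per3 had 11.0 and 4.16 FPKM in the same libraries, while Arntl had 20.7 and 19.9 FPKM, both genes chosen after their values were seen. Without replicate 1 of siCirbp, Bhlhe41 passed as lower than mock 37 °C (limma adjusted p = 0.0285) in a fit that called 677 of all tested genes (6.21%), and without replicate 2 it was not called and stood higher. A mean over these libraries therefore describes neither of them for Dbp and Bhlhe41.

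After siRNA against Rbm3 limma called 0 of the 9 genes and 0 of all tested genes, 0% (adjusted p under 0.05), with an unadjusted p under 0.05 for Tef and Hlf and for 13.3% of all tested genes. In 6 of 9 genes the libraries labelled siRbm3 did not overlap those of mock 37 °C, 5 higher and 1 lower, beside 50.5% of all tested genes. The median log2 fold change of the 9 genes was 0.25, beside 0.12 over all tested genes. Tef had 35.2 and 33.6 FPKM in siRbm3, against 19.5 and 20.1 FPKM in mock 37 °C (log2 fold change 0.77, SE 0.23, n = 2 per group, limma adjusted p = 0.350). Hlf had 3.31 and 7.17 FPKM in siRbm3, against 11.1 and 10.5 FPKM in mock 37 °C (log2 fold change -0.99, SE 0.30, limma adjusted p = 0.350). Bhlhe40 had 107 and 193 FPKM in siRbm3, 1 library on each side of mock 37 °C, and Nfil3 had 23.7 and 37.7 FPKM, likewise on both sides. Dbp had 12.0 and 23.3 FPKM and Bhlhe41 24.1 and 27.0 FPKM in siRbm3, above both mock 37 °C libraries without passing (limma adjusted p = 0.597 and 0.661). Gm129 had 4.33 FPKM in both siRbm3 libraries. Csnk1d had 72.2 and 94.2 FPKM, just above mock 37 °C, and Csnk1e 26.2 and 37.2 FPKM, on both sides of it. Without replicate 1 of siRbm3, whose Rbm3 level goes against its label, limma called 0 of the 9 genes and 951 of all tested genes (8.72%).

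Tef was above both mock 37 °C libraries in all 6 other libraries, as were 12.3% of all tested genes, and Hlf below them in all 6, as were 3.48%. The 3 comparisons share the mock 37 °C libraries, so these are not separate observations.

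Between siCirbp and siRbm3 limma called 0 of the 9 genes and 0.0367% of all tested genes. Bhlhe40, with 95.8 and 66.4 FPKM in siCirbp, against 107 and 193 FPKM in siRbm3, was the 1 gene with an unadjusted p under 0.05 and the 1 gene whose libraries did not overlap, beside 15.2% and 36.3% of all tested genes (log2 fold change -0.84, SE 0.29, limma adjusted p = 0.272). Without replicate 1 of siRbm3, Bhlhe40 and Nfil3 passed as lower in siCirbp (limma adjusted p = 0.0159 and 0.0187), in a fit that called 2132 genes, 19.6% of all tested, of which 789 were lower (7.24%).

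The differences of the mock 32 °C libraries from the siRNA libraries were tested directly, since a gene called at 32 °C and not after siRNA is not thereby shown to differ. Against siCirbp, 4 of the 9 genes were lower at 32 °C, where 21.6% of tested genes were: Nfil3 (log2 fold change -1.26, limma adjusted p = 0.00550), Bhlhe40 (-1.10, 0.0267), Csnk1d (-0.62, 0.0307) and Gm129 (-0.71, 0.0447). Bhlhe41 differed by -1.14 without passing (limma adjusted p = 0.0632). Against siRbm3, 4 were lower, where 26.2% of tested genes were: Nfil3 (log2 fold change -1.63, limma adjusted p = 0.00202), Bhlhe40 (-1.94, 0.00298), Bhlhe41 (-1.83, 0.0105) and Csnk1d (-0.77, 0.0118). Hlf differed from siCirbp by -0.55 (SE 0.30, limma adjusted p = 0.208) and from siRbm3 by -0.07 (SE 0.30, limma adjusted p = 0.878), a value that changed sign in 4 of 17 alternatives. Temperature and transfection with siRNA both separate these groups. Against siCirbp 0 of the 9 genes were called without replicate 1 or 2 of mock 32 °C, in fits that called 9.13% and 8.90% of all tested genes, and 1, Nfil3, without either mock 37 °C library, in fits that called 20.4%. Without replicate 1 of siCirbp, Dbp passed as higher at 32 °C (log2 fold change 1.5, limma adjusted p = 0.0276), where 30.1% of all tested genes were called. Against siRbm3 2 of the 9, Nfil3 and Bhlhe40, were called without replicate 1 or 2 of mock 32 °C, where 13.5% and 12.4% of all tested genes were.

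Other genes of the clock went both ways at 32 °C, as did all tested genes, of which 13.0% were called higher and 19.8% lower. Of 14 core loop genes 12 were tested, of which 3 rose and 2 fell, with a median log2 fold change of -0.01. The activator gene Arntl fell, with 11.0 FPKM in mock 32 °C, against 20.2 FPKM in mock 37 °C (log2 fold change -0.83, limma adjusted p = 0.00696). Per1 fell as well, by 0.77 on the log2 scale, while Per2 and the Rev-erb gene Nr1d2 rose by 0.76 and 0.91 (limma adjusted p = 0.0115, 0.0283 and 0.0283). The remaining gene that rose was Arntl2, the paralog of Arntl, named here after its value was seen. It had 24.1 FPKM in mock 32 °C, against 14.5 FPKM in mock 37 °C (log2 fold change 0.69, limma adjusted p = 0.033). Of 22 other kinases, phosphatases and ubiquitin ligases that act on clock proteins 19 were tested, and 3 fell and 0 rose. These were the kinase genes Gsk3a (-0.69), Gsk3b (-0.67) and Csnk1g2 (-0.65), with limma adjusted p = 0.0111, 0.0146 and 0.0285. The median of these 19 was 0.00.

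Of 12 other genes known as clock outputs in many tissues 11 were tested, and 3 rose and 3 fell (median -0.07). Ccrn4l, the nocturnin gene, had 8.10 FPKM in mock 32 °C, against 21.1 FPKM in mock 37 °C (log2 fold change -1.28, limma adjusted p = 0.00202). Por, the cytochrome P450 reductase gene, fell by 0.87, while the transcription factor gene Klf10 rose by 0.67 and the cyclin-dependent kinase inhibitor gene Cdkn1a by 1.60 (limma adjusted p = 0.00613, 0.00887 and 0.00924). Of 13 other bZIP factors 10 were tested, of which Atf4 and Ddit3, factors of the integrated stress response, rose, by 1.18 and 1.00, and Mafg fell by 0.62 (limma adjusted p = 0.00913, 0.0297 and 0.0282). After siCirbp, Cry1 rose by 0.90 (limma adjusted p = 0.0372), as did the casein kinase 2 subunit gene Csnk2b by 0.67 (0.0440), and no other gene of these 4 lists was called. After siRbm3 limma called 0 of their genes.

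Bhlhe40 and Bhlhe41 are both known as targets of hypoxia-inducible factors, so hypoxia-inducible genes are given beside them. At 32 °C 11 of 14 tested genes of this list fell and 0 rose, where 19.8% of all tested genes fell and 13.0% rose. The median log2 fold change of the list was -1.39. The glucose transporter gene Slc2a1 (-2.28), the prolyl hydroxylase gene P4ha2 (-2.41), hexokinase Hk2 (-2.03) and Ankrd37 (-2.47) had the smallest adjusted p (limma adjusted p = 0.00250, 0.00250, 0.00277 and 0.00344). In siCirbp 1 of 14, Bnip3, fell (-1.07, limma adjusted p = 0.0498) with a list median of -0.46, and in siRbm3 0 were called with a median of 0.11, beside 0.12 over all tested genes. Bhlhe40 stood at -0.57 in siCirbp and at 0.27 in siRbm3, and neither value passed. The part of hypoxia-inducible expression in the Bhlhe40 and Bhlhe41 results was not tested.

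**Figure D3:**
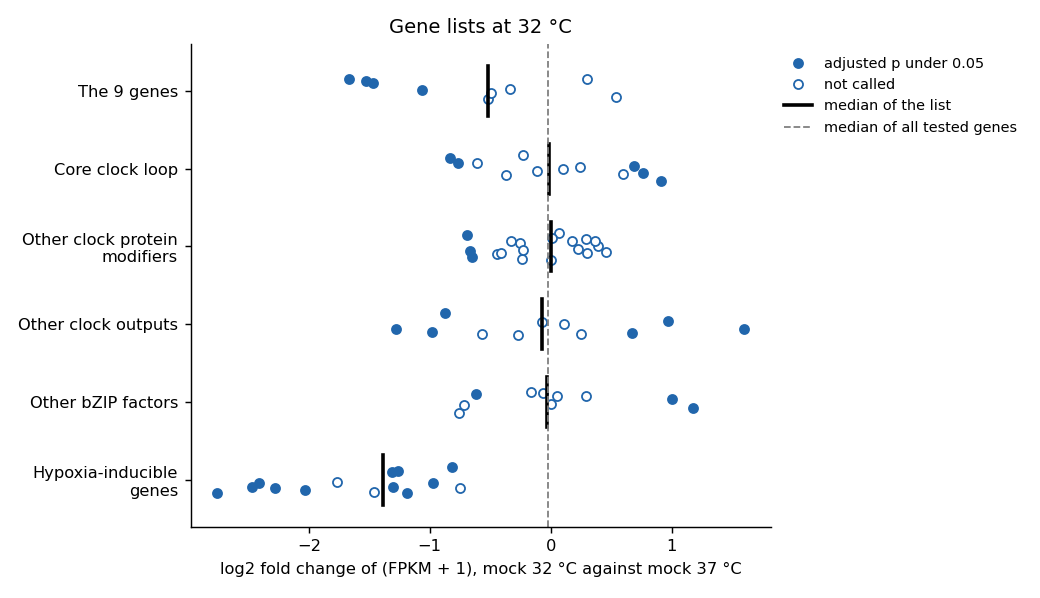
Log2 fold change of (FPKM + 1) at 32 °C against 37 °C (x axis) for the tested genes of 6 lists (y axis); filled points passed limma's adjusted p of 0.05, black bars are list medians and the dashed line is the median of all tested genes. The 9 genes have a median of -0.52 and the hypoxia-inducible genes of -1.39. The medians of the other 4 lists lie around 0, though each of these lists holds called genes.

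The genes of most like pattern were found by the root mean square difference of log2(FPKM + 1), centred per gene, over the 8 libraries among 8608 genes of at least 5 FPKM. For Nfil3 they were Plekha2, Neurl4 and the lysyl hydroxylase gene Plod3, at 0.09, 0.09 and 0.10, where the Nfil3 profile itself had a root mean square of 0.67. For Bhlhe40 they were Khnyn, Phospho1 and the dystroglycan gene Dag1, at 0.11, 0.14 and 0.15. For Bhlhe41 they were Gprc5b, the glycolytic enzyme gene Tpi1 and the ephrin receptor gene Ephb3, at 0.13, 0.14 and 0.17. For Hlf the nearest, Gdf11, Nrn1 and Zfp36l1, were no closer than 0.24, 0.25 and 0.28, beside a profile of 0.50.

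Tef and Csnk1d each have 2 listed transcripts, which allows a look within the gene. The Tef transcripts start 8741 bases apart and end together on mm9: NM_153484 at chr15:81633103-81657293 and NM_017376 at chr15:81641844-81657293. NM_017376 carried 52.8% and 45.0% of Tef FPKM in mock 32 °C, 38.8% and 60.4% after siCirbp and 58.2% and 46.3% after siRbm3, against 38.8% and 58.6% in mock 37 °C. The libraries of 1 group were thus farther apart than the group means, and its log2 ratio to the other transcript changed by 0.01 at 32 °C, 0.04 in siCirbp and 0.20 in siRbm3 (SE 0.56 each, limma adjusted p = 0.992, 0.985 and 0.999). The Csnk1d transcripts NM_027874 and NM_139059 share both ends of the locus at chr11:120823055-120852647. NM_139059 carried 33.2% and 31.7% of Csnk1d FPKM in mock 32 °C, 44.4% and 51.0% after siCirbp and 51.6% and 43.6% after siRbm3, against 41.7% and 35.8% in mock 37 °C. It was lower at 32 °C and higher in both siRNA groups than in either mock 37 °C library, by log2 ratios of -0.37, 0.51 and 0.51 (SE 0.31 each). None of these passed limma (adjusted p = 0.630, 0.539 and 0.999), where 0.238%, 0% and 0% of 2936 tested transcripts did.

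**Figure D4:**
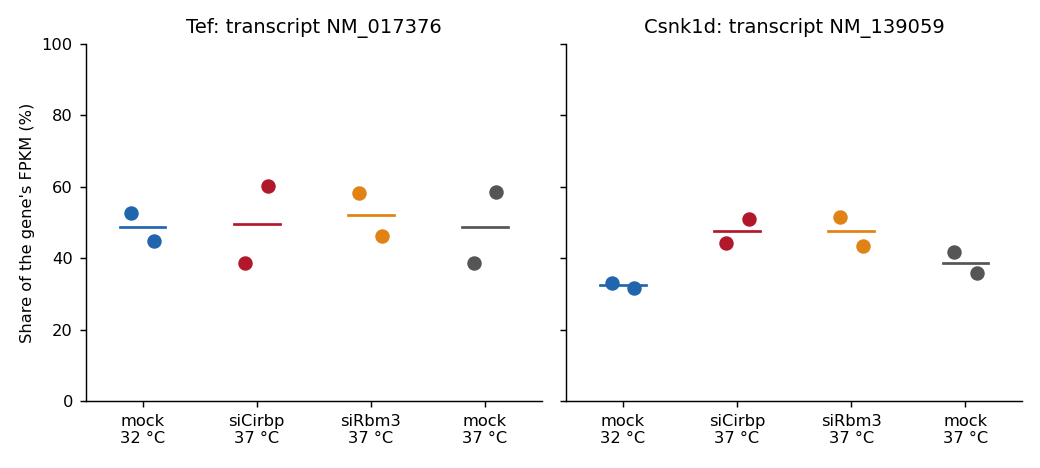
Share of the gene's FPKM (%, y axis) carried by Tef transcript NM_017376 (left) and Csnk1d transcript NM_139059 (right) per library, by group (x axis); lines are group means. The 2 mock 37 °C libraries of Tef lie at 38.8% and 58.6%, while Csnk1d lies at 33.2% and 31.7% in mock 32 °C.

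Sites of the RNA-binding proteins were found in the loci of both kinases and of Tef. The PAR-CLIP files hold 1941 Cirbp sites and 2118 Rbm3 sites on mm9, from 1 library each, so no test was made. Csnk1d held 1 Cirbp site and 3 Rbm3 sites, Csnk1e 1 Rbm3 site and Tef 1 Rbm3 site, while the other 6 loci held none. Of tested genes 8.32% held a Cirbp site and 8.78% an Rbm3 site, beside 1 and 3 of the 9 genes. Sites of both proteins, as in Csnk1d, were in 3.28% of tested genes, and 3 or more Rbm3 sites in 1.15%. Sites were more often listed in highly expressed genes, with a Cirbp site in 13.2% and an Rbm3 site in 11.1% of genes with a mean of at least 20 FPKM.

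All Csnk1d sites lie on the minus strand, from which Csnk1d is known to be transcribed, so the lower-coordinate end of its locus is the 3′ end. The Rbm3 site at chr11:120823076-120823105, with a score of 460, is centred 36 bases from that end. The Rbm3 sites at chr11:120825118-120825151 and chr11:120825184-120825212, with scores of 600 and 1, are 2080 and 2143 bases from it. A score of 1 is the lowest in the Rbm3 file, held by 207 of its sites, and the count of 3 Rbm3 sites in Csnk1d includes this site. The score is the authors' own value, on a scale the sources do not define, with a median of 318 in the Rbm3 file, where the score of 600 ranks 141 of 2118. The Cirbp site at chr11:120852418-120852455 is 211 bases from the other end and has a score of 101, under the median of 301 in the Cirbp file. Csnk1e is annotated on the minus strand, and its Rbm3 site at chr15:79256823-79256859 (score 233) lies within the gene, 8559 bases from the 3′ end of the locus. Tef is on the plus strand, and its Rbm3 site at chr15:81654143-81654164 (score 282) lies 3140 bases before the 3′ end that both transcripts share. With scores of at least the median of their file, 1 gene kept an Rbm3 site, Csnk1d, and 0 kept a Cirbp site, where 5.39% and 5.09% of all tested genes held such sites. The genes that fell at 32 °C, Nfil3, Bhlhe40, Bhlhe41 and Hlf, had no listed site in their loci (mm9 chr13:53062578-53076408, chr6:108610623-108616919, chr6:145811257-145813860 and chr11:90197849-90252231, in that order), the nearest being 156 kb from Bhlhe40. Dbp (chr7:52960617-52965573) and Gm129 (chr3:95682428-95686151) had none either. Except for Hlf, the loci without a site span fewer bases than those of Csnk1d, Csnk1e and Tef. A longer locus has more room for a site, and the shares of all tested genes are not matched for locus length. An empty locus says only that no site of it is in the deposited lists.

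**Figure D5:**
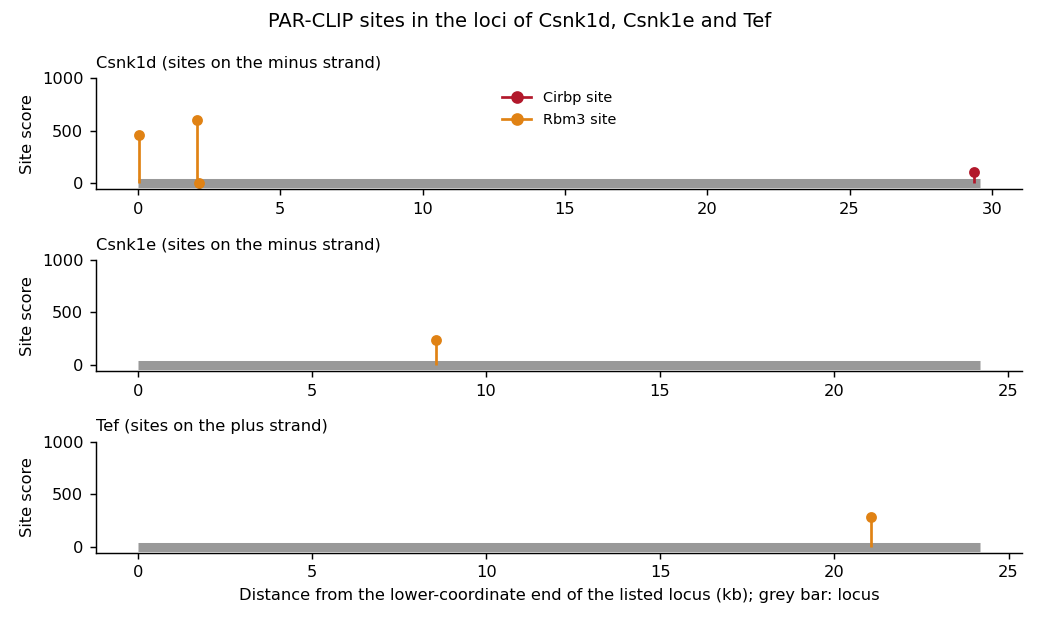
PAR-CLIP sites of Cirbp and Rbm3 in the loci of Csnk1d, Csnk1e and Tef: distance from the lower-coordinate end of the locus in kb (x axis) and the authors' site score (y axis). Csnk1d has Rbm3 sites with scores of 460, 600 and 1 near its lower end and a Cirbp site with a score of 101 near its upper end.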

How the data were processed

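The authors deposited FPKM for 28702 RefSeq transcripts in Cufflinks-style tables, and these values were the starting point. The submitters' processing notes name TopHat 1.1.2 and the mm9 build. The version of Cufflinks, the annotation release, the treatment of reads with several positions and the caller of PAR-CLIP sites are not given in the sources used here. The deposited coverage signal counts reads over each base, averaged along a transcript. Its ratio to FPKM gave the depth and the reads per gene. Transcript length is in nt, per the file headers, and this other quantity was used only for read numbers and the length trend. The score of PAR-CLIP sites was used as deposited by the authors.

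FPKM were summed per gene. Limma 3.58.1 in R 4.3.3 was fitted to log2(FPKM + 1) of genes with a mean of at least 1 FPKM, as 4 groups of libraries in 1 model (4 residual degrees of freedom), using the trend and robust options. A fold change on this scale understates that of low genes. All tests are two-sided, and p was adjusted over 10901 genes by Benjamini-Hochberg. Transcript ratios were fitted alike for genes of at least 5 FPKM with 2 or more transcripts of at least 10%. A site was assigned to a gene when its midpoint lay in the listed locus. Correlations between groups of the differences between replicates 1 and 2 ran from -0.15 to 0.09, so no pairing was assumed. Genes outside the 9 were named by rule: up to 4 called genes of smallest adjusted p per list and comparison, and the 3 most like each called gene. The genes, lists and alternatives were chosen with earlier results of these data known, and the alternatives for the direct tests of 32 °C against siRNA were added after the data were seen. Alternatives were another pseudocount (0.1), other filters, median centring, quantile normalization, the highest transcript only, a replicate block, a fit of 2 groups only, removal of a length trend, and leaving out each library.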

Additional observations from a re-analysis of the deposited data

How the results depend on the processing

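The fall of Nfil3, Bhlhe40, Bhlhe41 and Hlf at 32 °C kept its direction in every setting tried, while the calls did not all hold. Of the 9 genes, the number called at 32 °C was 4, but 0 without a filter on low values, 9 in a fit of the 2 groups only, and 1 to 6 without 1 library. All genes called there numbered 3573, but 60 without a filter, 7557 with 2 groups only and 395 to 5071 without 1 library. After siCirbp 370 genes were called, but 43 without a filter, 217 with the highest transcript only, 3 with a replicate block, 13 with 2 groups only, 101 with the length trend removed and 4 to 1612 without 1 library, and the number among the 9 genes was 0 to 1. After siRbm3 0 genes were called, but 35 without a filter, 2 with the highest transcript only, 5 with 2 groups only, 1 with the length trend removed and 0 to 951 without 1 library. Between siCirbp and siRbm3 4 genes were called, but 43 without a filter, 7 with 2 groups only and 4 to 2132 without 1 library, and the number among the 9 genes was 0 to 2. In the direct test of 32 °C against siCirbp 4 of the 9 genes were called, but 0 without a filter, 1 with median centring, 2 with the highest transcript only and 0 to 5 without 1 library. All genes called there were 3293, and 167, 3245, 2988 and 970 to 4690 under these settings. Against siRbm3 4 of the 9 genes were called, but 0 without a filter and 2 to 5 without 1 library, where all genes called were 4279, 113 and 1347 to 5480. The cause of these changes was not tested. The replicate block, with numbers that are not known to pair the libraries, moved Csnk1d at 32 °C past the threshold (limma adjusted p = 0.0412) and Hlf out of it (0.0594).

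Of the values that changed sign, 0 passed the test. Csnk1d after siCirbp was -0.07 with quantile normalization and -0.12 with the highest transcript only. After siRbm3 Csnk1e was -0.06 with median centring, -0.13 with quantile normalization and -0.11 with the length trend removed, and Nfil3 was -0.04 with quantile normalization and -0.07 with the length trend removed. In the direct test of 32 °C against siCirbp Tef was 0.07 with median centring, 0.01 with quantile normalization and 0.10 with the length trend removed. Against siRbm3 Hlf was 0.12, 0.07 and 0.21 under these settings, and Tef was 0.01 with the length trend removed. Without 1 library, log2 fold changes after siCirbp ran from -1.20 to 0.79 for Dbp, from -1.04 to 0.38 for Bhlhe41 and from -0.25 to 0.14 for Csnk1e. After siRbm3 they ran from -0.23 to 0.42 for Nfil3, from -0.15 to 0.69 for Bhlhe40 and from -0.24 to 0.25 for Csnk1e. Between siCirbp and siRbm3 they ran from -1.86 to 0.13 for Dbp, from -1.40 to 0.02 for Bhlhe41, from -0.48 to 0.28 for Tef, from -0.19 to 0.46 for Gm129, from -0.34 to 0.04 for Csnk1d and from -0.30 to 0.19 for Csnk1e. In the direct tests they ran from -0.49 to 1.5 for Dbp and from -0.50 to 0.26 for Tef against siCirbp, and from -0.81 to 0.09 for Dbp and from -0.53 to 0.40 for Hlf against siRbm3. The log2 ratio of Tef transcript NM_017376 to the other ran from -0.51 to 0.53 at 32 °C, from -0.56 to 0.63 after siCirbp, from -0.33 to 0.72 after siRbm3 and from -0.75 to 0.44 between siCirbp and siRbm3, where that of Csnk1d transcript NM_139059 ran from -0.22 to 0.23.

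With 2 libraries per group, leaving one out leaves a lone library that is assumed to vary like the other groups. Gm129 and, in siCirbp replicate 2, Dbp rest on the fewest reads.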
